A study of Mus musculus with 6 samples.

Results

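The 9 genes described here make the enzymes that break down tyrosine (Tat, Hpd, Hgd and Fah) and tryptophan (Tdo2, Afmid, Kmo, Kynu and Haao) in the mouse liver. They were chosen by symbol, and all 9 were found among the 24532 genes of the deposited table. All 6 mice were wild-type C57BL/6 animals kept for 4 weeks on chow containing 0.1% DDC (3,5-diethoxycarbonyl-1,4-dihydrocollidine). DDC blocks heme synthesis and injures the bile ducts. In the last 2 of these weeks 3 mice were given recombinant human cytoglobin (rhCYGB, an oxygen-binding globin) at 2 mg/kg, 2 times a week, and the other 3 were given its vehicle, normal saline. The livers were collected 2 days after dosing ended, and poly(A) RNA was sequenced. Sex and age are not given in the labels. No mouse on a diet without DDC was analysed here, so the values compare rhCYGB with vehicle within the injury and do not measure the effect of DDC.

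Hepatocytes burn off surplus aromatic amino acids. Tat moves the amino group of tyrosine to 2-oxoglutarate, Hpd turns the resulting keto acid into homogentisate, Hgd opens its ring, and Fah splits the last intermediate into fumarate and acetoacetate. Tryptophan is opened by Tdo2, a heme enzyme, and its product is converted by Afmid, Kmo, Kynu and Haao in turn toward quinolinate, a precursor of NAD. Hpd, Hgd and Haao use iron that is not held in heme. Loss of Fah causes hereditary tyrosinemia and loss of Hgd causes alkaptonuria.

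Every enzyme had a higher fitted mean with rhCYGB than with vehicle, by 1.24-fold for Kmo up to 5.34-fold for Hpd, when libraries were scaled by edgeR's TMM method. Kmo had a lower fitted mean under 5 of the 16 alternatives run and Kynu under 2 of them, both given below. None of the 9 differences passed the test over all genes, since edgeR's smallest adjusted p was 0.523. The values came mostly from 2 mice. In rhCYGB replicates 2 and 3 the levels of 8 of 9 enzymes lay above all 3 vehicle mice, where 37.5% and 37.4% of all genes tested did. In rhCYGB replicate 1 the levels of 6 of 9 lay within the vehicle range, close to the 58.1% of all genes that did. Hpd stood furthest from the vehicle mean in single mice, at 4.02 times it in rhCYGB replicate 2 and 11.1 times in rhCYGB replicate 3.

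The libraries did not separate cleanly by treatment. Across the genes tested, log2 expression in rhCYGB replicate 1 correlated at 0.965 to 0.974 with the vehicle libraries and at 0.878 and 0.915 with the other rhCYGB libraries (Pearson, across genes, which are not independent replicates). Each library held between 58422095 and 72431373 estimated counts. Libraries also differed by transcript length, with a slope of log2 expression per doubling of length between -0.02 and 0.40 in the vehicle libraries, 0.24 in rhCYGB replicate 1, and -0.35 and -0.33 in rhCYGB replicates 2 and 3. TMM factors ran from 1.07 to 1.45 with vehicle, and were 1.18, 0.744 and 0.630 in rhCYGB replicates 1 to 3. The transcripts of the 9 enzymes are 1224 bases (Haao) to 3070 bases (Kynu) long.

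The start regions of 8 of the 9 genes were matched in the RefSeq promoter table (build GRCm38.p6, the sequence of mm10), as windows of 300 bases from 250 before to 50 after the annotated start. They were searched on both strands for TATAAA (the TATA box core), the HNF1 motif, TTGCNNAA (C/EBP), CAAAGTCCA (HNF4), the full glucocorticoid response element and TGTTCT (one arm of that element, which every full element also holds). Of 32851 promoter windows of this length, 13.6%, 0.0609%, 10.8%, 0.475%, 0.00913% and 19% held these motifs in that order. Windows of 3 genes are shown because they stand at the ends of the range of differences by edgeR with TMM. Hpd had the largest, Kmo the smallest, and Hgd the smallest among the tyrosine enzymes (log2 fold change 0.99). Tat was almost equal to Hgd in that fit (1.00). With libraries scaled to hepatocyte markers Tat was lower than Hgd (0.08 against 0.15). Capitals mark the motif letters found.
Hpd, chr5:123182674-123182973, minus strand: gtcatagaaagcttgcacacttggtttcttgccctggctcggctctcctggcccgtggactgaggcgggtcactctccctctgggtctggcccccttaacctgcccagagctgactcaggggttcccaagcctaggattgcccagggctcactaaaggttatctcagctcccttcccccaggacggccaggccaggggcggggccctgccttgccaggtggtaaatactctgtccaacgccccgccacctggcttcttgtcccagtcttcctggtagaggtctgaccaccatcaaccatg
Hgd, chr16:37579903-37580202, plus strand: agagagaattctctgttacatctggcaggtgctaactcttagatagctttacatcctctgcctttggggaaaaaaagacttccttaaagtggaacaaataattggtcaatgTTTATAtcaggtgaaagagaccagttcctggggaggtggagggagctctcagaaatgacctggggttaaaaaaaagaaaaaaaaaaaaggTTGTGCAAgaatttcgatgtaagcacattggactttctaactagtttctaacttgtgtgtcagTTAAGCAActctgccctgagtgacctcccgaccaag
Kmo, chr1:175631943-175632242, plus strand: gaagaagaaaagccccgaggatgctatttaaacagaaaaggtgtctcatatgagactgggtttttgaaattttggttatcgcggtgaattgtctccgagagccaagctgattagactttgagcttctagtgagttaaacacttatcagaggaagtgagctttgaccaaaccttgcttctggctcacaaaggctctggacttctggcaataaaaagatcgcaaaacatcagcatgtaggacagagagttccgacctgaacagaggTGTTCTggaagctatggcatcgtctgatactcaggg
The Hpd window held none of these letters, and neither did those of Fah, Tat and Afmid. The Hgd window held TTGCNNAA at 2 places and TATAAA at 1, all on the opposite strand. TGTTCT stood once each in the Kmo and Haao windows, and TATAAA once in the Tdo2 window, on the strand of the gene. The G and C content was 61.3% in the Hpd window, 41% in that of Hgd and 44.3% in that of Kmo, against a median of 52.7% over all windows. A match is a description of letters and not evidence of binding.

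Expressed per transcript length, as TPM (the deposited FPKM rescaled to the same total in each library), the tyrosine enzymes and Tdo2 were the abundant members. With vehicle, Hpd stood at 1238 ± 237 TPM (SD, n = 3), Tat at 876 ± 123 TPM, Hgd at 634 ± 19.3 TPM and Fah at 529 ± 80.6 TPM. Of the tryptophan enzymes, Tdo2 stood at 508 ± 124 TPM and Haao at 399 ± 43.3 TPM. Kmo at 133 ± 30.1 TPM, Kynu at 72.3 ± 8.03 TPM and Afmid at 48.0 ± 4.42 TPM were the scarce ones. In this order the vehicle ranges of the neighbours Hpd and Tat, Fah and Tdo2, and Tdo2 and Haao overlapped, and those of the other neighbours did not. With rhCYGB the means were 3303 ± 2561 TPM for Hpd, 938 ± 331 TPM for Tat, 766 ± 243 TPM for Fah, 741 ± 351 TPM for Tdo2 and 721 ± 37.3 TPM for Hgd (SD, n = 3). Haao stood at 425 ± 31.1 TPM, Kmo at 120 ± 104 TPM, Kynu at 73.9 ± 22.7 TPM and Afmid at 65.7 ± 22.2 TPM. Hpd was the most abundant member in 5 of 6 libraries, the exception being vehicle replicate 1, where Tat was.

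Hpd, 4-hydroxyphenylpyruvate dioxygenase (gene 15445, chromosome 5, 123171807 to 123182686 on mm10), makes homogentisate and is the target of the drug nitisinone. In vehicle replicates 1, 2 and 3 its CPM (the count scaled to the TMM-corrected library size) was 468, 1071 and 924, and in rhCYGB replicates 1, 2 and 3 it was 736, 3305 and 9117. rhCYGB replicates 2 and 3 were far above all vehicle mice, while rhCYGB replicate 1 lay between them, so the groups overlapped. The rhCYGB libraries differed 12.4-fold among themselves, more than for any other member. Its log2 fold change was 2.42 (SE 0.87, edgeR unadjusted p = 0.0263, edgeR adjusted p = 0.523). Hpd was the 1 member that DESeq2 called (log2 fold change 2.47, DESeq2 adjusted p = 0.0478). DESeq2 gave an adjusted p to only 1836 of the 14415 genes tested, and it called 56 of these (3.05%). Without scaling, the share of all counts on Hpd was 0.0678%, 0.114% and 0.109% in the vehicle mice, against 0.0864%, 0.246% and 0.575% in the rhCYGB mice.

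Tat, tyrosine aminotransferase (gene 234724, chromosome 8, 109990436 to 109999804), catalyses the first step and is a classical glucocorticoid-induced liver gene. Its CPM was 862, 1068 and 967 in the vehicle mice and 926, 1477 and 3385 in the rhCYGB replicates. One mouse, rhCYGB replicate 3, stood at 3.51 times the vehicle mean. The log2 fold change was 1.00 (SE 0.52, edgeR adjusted p = 0.523), and it was 0.32 when that mouse was left out. Per length, vehicle mice had 1018, 796 and 814 TPM of Tat and rhCYGB mice 841, 667 and 1308 TPM. On that scale rhCYGB replicate 2 was the lowest of the 6.

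Hgd, homogentisate 1,2-dioxygenase (gene 15233, chromosome 16, 37580153 to 37632026), had a CPM of 379, 599 and 560 in the vehicle mice, against 561, 1212 and 1281 in the rhCYGB mice. rhCYGB replicate 1 lay within the vehicle range and the other treated mice lay at about the same level, above it. The difference was 0.99 on the log2 scale (SE 0.42, edgeR unadjusted p = 0.0503, edgeR adjusted p = 0.523). In TPM Hgd stood at 624, 622 and 656 in the vehicle mice, against 711, 762 and 690 in the rhCYGB mice, and on that scale its groups did not overlap. Its main transcript held 97.4 ± 0.322% of the gene's TPM with vehicle and 97.8 ± 0.440% with rhCYGB, a difference that an exact two-sided permutation test did not separate (p = 0.3, Benjamini-Hochberg p = 0.6 over the 2 members with more than 1 transcript; 0.10 is the smallest p for 3 against 3 mice).

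Fah, fumarylacetoacetate hydrolase (gene 14085, chromosome 7, 84585159 to 84605942), completes the pathway. Its CPM was 250, 538 and 431 in the vehicle mice, against 407, 1049 and 1781 in the rhCYGB mice. Again rhCYGB replicate 1 fell among the vehicle mice and replicates 2 and 3 above them. The log2 fold change was 1.41 (SE 0.58, edgeR unadjusted p = 0.0449, edgeR adjusted p = 0.523).

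The 4 tyrosine enzymes did not keep their proportions. Hpd made up 31.6%, 40.8% and 40.2% of the summed TPM of the 4 with vehicle, and 35.6%, 54.9% and 67.0% with rhCYGB. Tat made up 33.4%, 23.3% and 24.2% with vehicle, and 25.7%, 14.1% and 14.3% with rhCYGB. A ratio between members does not depend on a single scaling factor per library, but it still holds each library's trend on transcript length. Hpd TPM over Hgd TPM was 1.55, 2.24 and 2.07 in the vehicle mice, against 1.64, 3.42 and 8.91 in the rhCYGB mice. The pattern of a large Hpd share was therefore one of rhCYGB replicates 2 and 3 and not of rhCYGB replicate 1, whose shares lay within the vehicle range for Hpd and Tat.

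**Figure D1:**
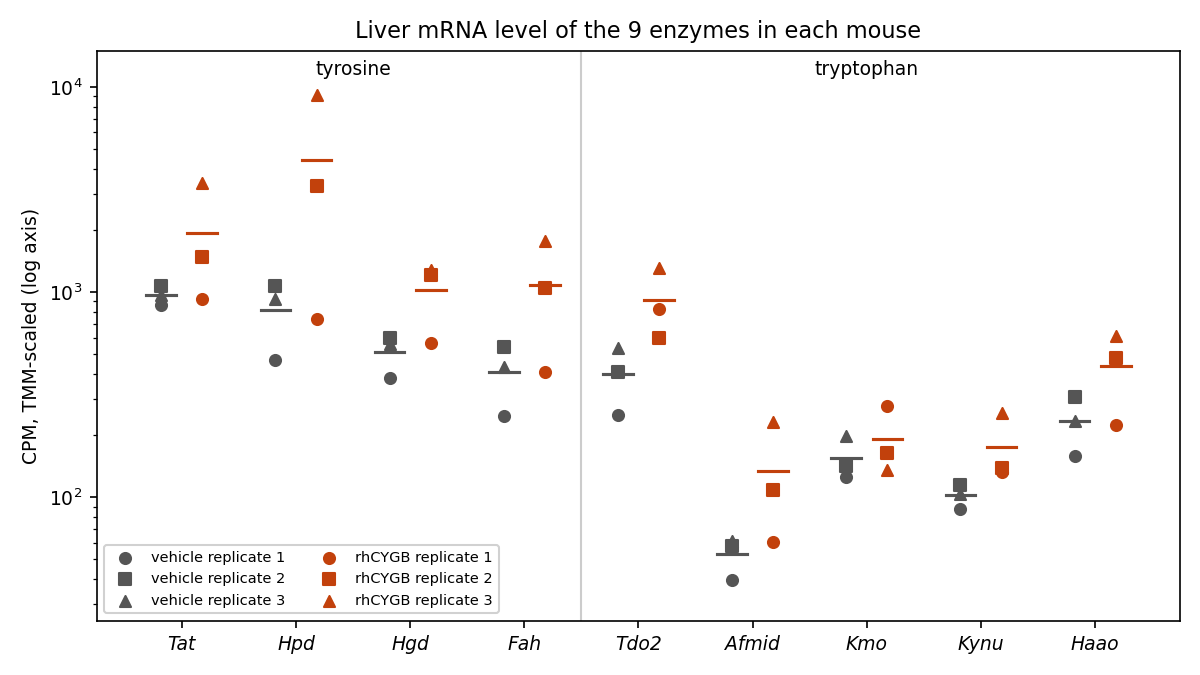
Points give the CPM (TMM-scaled, log axis) of each enzyme in each of the 6 mice, with vehicle in grey and rhCYGB in orange, the symbol shape giving the replicate and the bar the group mean. In rhCYGB replicate 3 (orange triangles) 8 of 9 enzymes have their highest value, Hpd reaching 9117 CPM, while Kmo there is at 136 CPM.

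**Figure D2:**
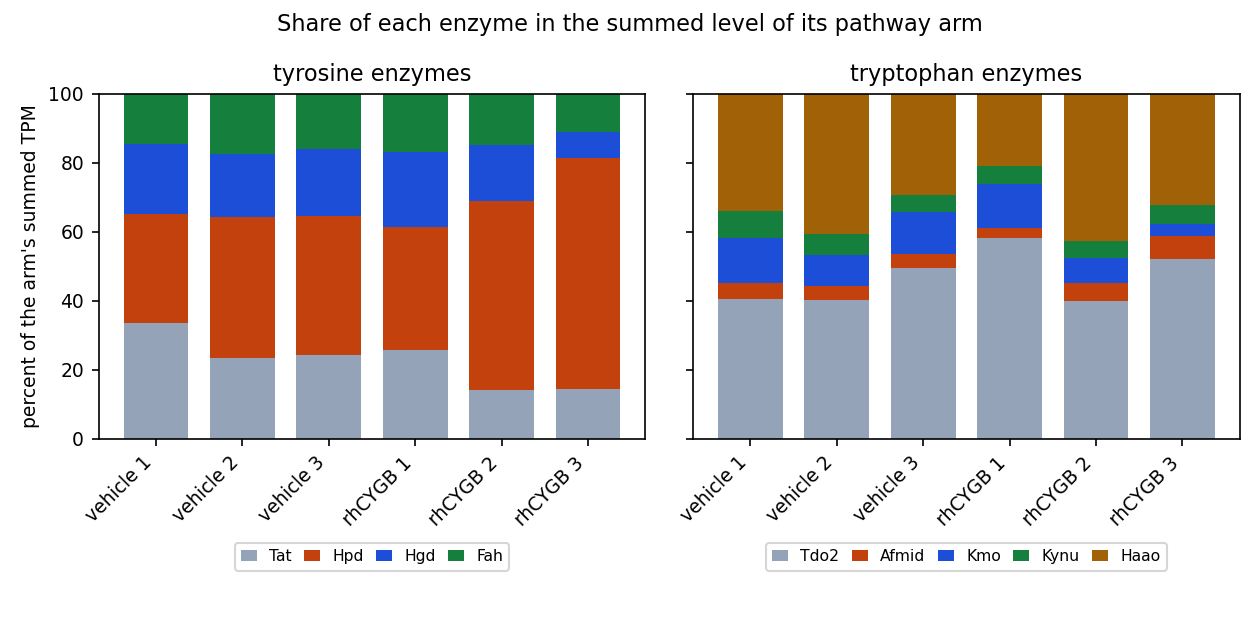
Stacked bars give each enzyme's percent of the summed TPM of the 4 tyrosine enzymes (left) and of the 5 tryptophan enzymes (right) in each library. The Hpd share is 31.6% to 40.8% with vehicle and reaches 67.0% in rhCYGB replicate 3, and the Kmo share is 3.54% there.

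Tdo2, tryptophan 2,3-dioxygenase (gene 56720, chromosome 3, 81958414 to 81975728), opens the indole ring and controls entry to the pathway in liver. Its CPM was 250, 407 and 531 in the vehicle replicates and 827, 595 and 1313 in the rhCYGB replicates. All 3 treated mice, rhCYGB replicate 1 included, were above all 3 vehicle mice. For Tdo2 the log2 fold change was 1.20 (SE 0.44, edgeR unadjusted p = 0.0291, edgeR adjusted p = 0.523). The separation depended on the scale. In TPM the groups overlapped, with 431, 442 and 650 in the vehicle mice against 1093, 391 and 738 in the rhCYGB mice, and rhCYGB replicate 1 was then the highest.

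Afmid, arylformamidase (gene 71562, chromosome 11, 117825919 to 117839908), releases kynurenine from its formyl form. Vehicle mice had 39.5, 57.7 and 61.4 CPM and rhCYGB mice 60.4, 109 and 231 CPM, with rhCYGB replicate 1 inside the vehicle range. The log2 fold change was 1.34 (SE 0.49, edgeR unadjusted p = 0.0293, edgeR adjusted p = 0.523). In the GENCODE M21 annotation, 1566 of its 3539 exonic bases are shared with Gm20708 on the same strand and 83 with Tk1 on the opposite strand, so its counts may be uncertain. The effect of this overlap on the deposited counts, whose annotation release is not given, was not tested.

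Kmo, kynurenine 3-monooxygenase (gene 98256, chromosome 1, 175632193 to 175660853), is a flavoprotein of the outer mitochondrial membrane. Vehicle mice had 125, 142 and 199 CPM of it and rhCYGB mice 277, 165 and 136 CPM. The treated mice differed in another way than for most members, with rhCYGB replicate 1 the highest of the 6 and rhCYGB replicate 3 within the vehicle range. For Kmo the log2 fold change was 0.31 (SE 0.36, edgeR unadjusted p = 0.415, edgeR adjusted p = 0.672), and it was -0.05 without rhCYGB replicate 1. In TPM, Kmo stood at 140, 100 and 159 in the vehicle mice, against 239, 70.9 and 50.1 in the rhCYGB mice. On that scale 2 treated mice were below all vehicle mice and 1 was above them.

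Kynu, kynureninase (gene 70789, chromosome 2, 43555325 to 43683048), cleaves 3-hydroxykynurenine with the help of vitamin B6. Vehicle mice had 87.2, 115 and 104 CPM and rhCYGB mice 132, 139 and 256 CPM. The groups did not overlap in CPM, although rhCYGB replicates 1 and 2 were only a little above the vehicle mice. The log2 fold change was 0.79 (SE 0.34, edgeR unadjusted p = 0.0509, edgeR adjusted p = 0.523). In TPM its group means were nearly the same, and the log2 fold change on log2(TPM + 1) was -0.01. Its main transcript held 95.9 ± 1.65% of the gene's TPM with vehicle and 95.9 ± 1.16% with rhCYGB (exact two-sided permutation p = 1).

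Haao, 3-hydroxyanthranilate 3,4-dioxygenase (gene 107766, chromosome 17, 83831354 to 83846790), makes the compound that closes to quinolinate. Vehicle mice had 158, 309 and 236 CPM and rhCYGB mice 225, 478 and 612 CPM. rhCYGB replicate 1 lay within the vehicle range and the other treated mice lay above it. For Haao the difference was 0.90 on the log2 scale (SE 0.45, edgeR unadjusted p = 0.0845, edgeR adjusted p = 0.523). Haao is the shortest member, and with each library's trend on transcript length removed its log2 fold change was 0.48.

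Among the tryptophan enzymes, the ratio of Tdo2 to Kmo TPM was 3.07, 4.40 and 4.08 in the vehicle mice, against 4.57, 5.52 and 14.7 in the rhCYGB mice. The groups were separate by a narrow margin, 4.40 in vehicle replicate 2 against 4.57 in rhCYGB replicate 1. Of 8 ratios examined it was the 1 with separate groups, no test was made, and 13.4% of all single genes had separate groups in CPM. Kmo made up 13.2%, 9.13% and 12.1% of the summed TPM of the 5 tryptophan enzymes with vehicle and 12.7%, 7.23% and 3.54% with rhCYGB. The summed TPM of the 5 was 1063, 1101 and 1316 in the vehicle mice, against 1881, 980 and 1415 in the rhCYGB mice, which overlapped. The summed TPM of the 4 tyrosine enzymes was 3050, 3413 and 3371 in the vehicle mice, against 3271, 4742 and 9171 in the rhCYGB mice, also overlapping.

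As a set, the 9 enzymes all had a log2 fold change above 0, where 46.8% of the 14415 genes tested did, and their median was 1.00 against -0.06 for all genes. At an unadjusted p under 0.05 by edgeR there were 4 of 9 (Hpd, Fah, Tdo2 and Afmid), all higher, where 8.12% of all genes met that p and 6.06% did so with higher values. For 2 of 9 (Tdo2 and Kynu) the CPM ranges were separate, both higher with rhCYGB. Among all genes 13.4% had separate ranges, 6.02% higher and 7.38% lower. At an edgeR adjusted p under 0.05 there were 0 of 9, and 0% of all genes. Of the 12 transcripts of these genes 0 passed, and at an unadjusted p under 0.05 there were 2 (those of Hpd and Tdo2), where 4.04% of all transcripts met that p. In vehicle replicate 1 all 9 enzymes had their lowest CPM, which was so for 26.8% of all genes. In rhCYGB replicate 3, 8 of 9 had their highest, which was so for 28.6%. Because the members were chosen with earlier results known, these counts describe the set and are not a test of it.

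Leaving out rhCYGB replicate 1 gave the highest number of calls among the libraries left out. By edgeR 5 of 9 then passed an adjusted p of 0.05, all higher, where 23.2% of all genes passed and 12.7% passed higher. These were Hpd (log2 fold change 2.91, edgeR adjusted p = 0.0213), Afmid (1.68, 0.0238), Fah (1.80, 0.0266), Hgd (1.28, 0.0310) and Haao (1.21, 0.0421). Tat had an edgeR adjusted p of 0.0504, Kynu of 0.0609, Tdo2 of 0.0736 and Kmo of 0.911. Each of the 6 libraries was left out in turn, and this fit is detailed because of its number of calls. Its adjusted p-values are therefore descriptive and not a test of rhCYGB. Limma-voom with sample quality weights gave rhCYGB replicate 1 the lowest weight of the 6 libraries (0.173), so it is not a check independent of leaving that library out. That fit called 5 of 9, namely Hpd, Hgd, Fah, Afmid and Haao, where 30.0% of all genes were called and 16.1% were called higher. Leaving out any 1 of the other 5 libraries gave 0 calls among the 9 and among all genes. Without rhCYGB replicate 3 the median of the 9 was 0.68, and that of Hpd was 1.304.

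The size of the differences depended on what the libraries were scaled to. The 10 hepatocyte markers all had a log2 fold change above 0 with rhCYGB (median 0.71). By edgeR 0 of them passed an adjusted p of 0.05, 1 had an unadjusted p under 0.05, and the groups were separate for 1. With libraries scaled to these markers the median of the 9 enzymes was 0.15, when the median of all genes was -0.69. Hpd then had a log2 fold change of 1.39, Tdo2 of 0.57, Fah of 0.51 and Afmid of 0.43, while Hgd, Tat, Haao and Kynu lay between 0.03 and 0.15 and Kmo was at -0.12. On log2(TPM + 1) all genes had a median of -0.51, Hpd was at 1.12, Fah at 0.50, Tdo2 at 0.45 and Afmid at 0.40, and Kmo was at -0.46. Hpd had the largest value under all 4 fits shown in the plot of fold changes by fit. With the length trend removed the median of the 9 was 1.02 and Hpd was at 2.01. In bulk tissue, fewer cells of a type and less RNA per cell cannot be told apart.

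**Figure D3:**
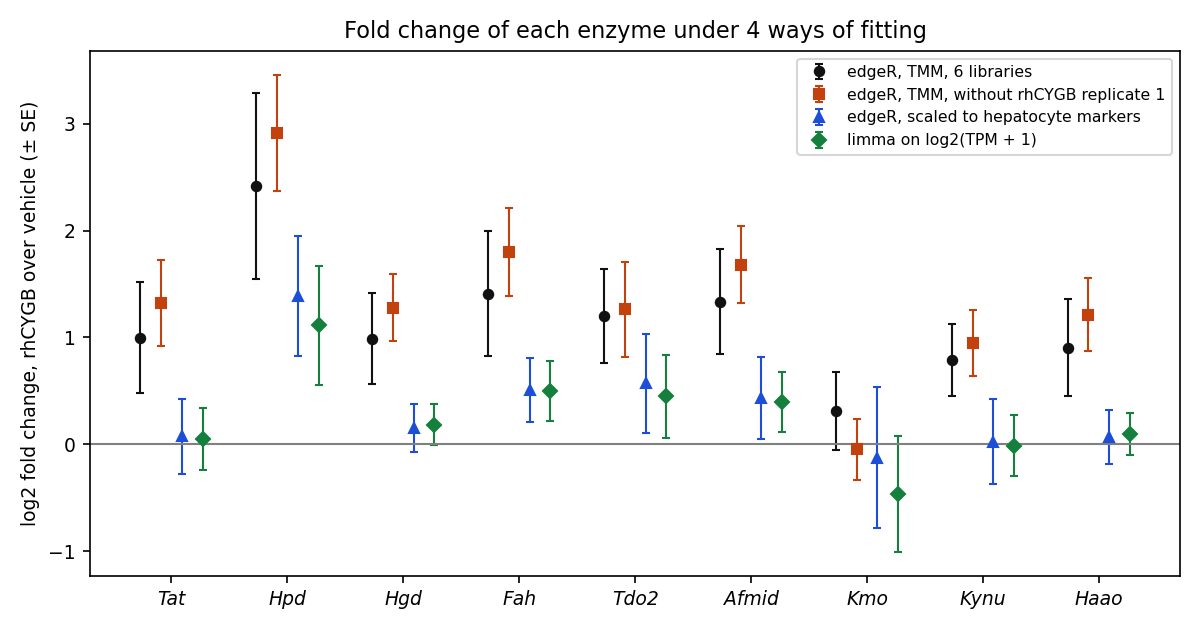
Points give each enzyme's log2 fold change of rhCYGB over vehicle and bars its SE, for the edgeR fit with TMM on 6 libraries (black), the same without rhCYGB replicate 1 (orange), edgeR with libraries scaled to hepatocyte markers (blue) and limma on log2(TPM + 1) (green). Hpd runs from 1.12 to 2.91 and is the highest of the 9 in each fit, while Kmo is below 0 in all but the black one, and Kynu is at -0.01 in the green one.

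Markers of other liver cells also differed between the libraries. Summed TPM of the 7 cholangiocyte markers was 1168 to 2043 with vehicle and 122 to 876 with rhCYGB, that of the 7 stellate cell and fibroblast markers 199 to 316 and 19.2 to 147, and that of the 7 macrophage markers 2018 to 3150 and 783 to 1639. In each list the lowest sum was in rhCYGB replicate 3. The hepatocyte markers summed to 140003 to 166757 TPM with vehicle and 155576 to 183427 TPM with rhCYGB. By fitted log2 fold change on the TMM scale 3 of 7 cholangiocyte, 1 of 7 stellate and 3 of 7 macrophage markers were higher, and 0 of these passed. Kidney markers, checked because kidney also expresses several of these enzymes, summed to at most 0.0185 TPM, with Umod, Slc12a1 and Kap at 0 counts in all 6 libraries. Rn45s, a ribosomal RNA gene, took 0.225% to 0.443% of the counts in 5 libraries and 1.74% in rhCYGB replicate 3. The part of these differences in the enzymes' values was not tested.

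**Figure D4:**
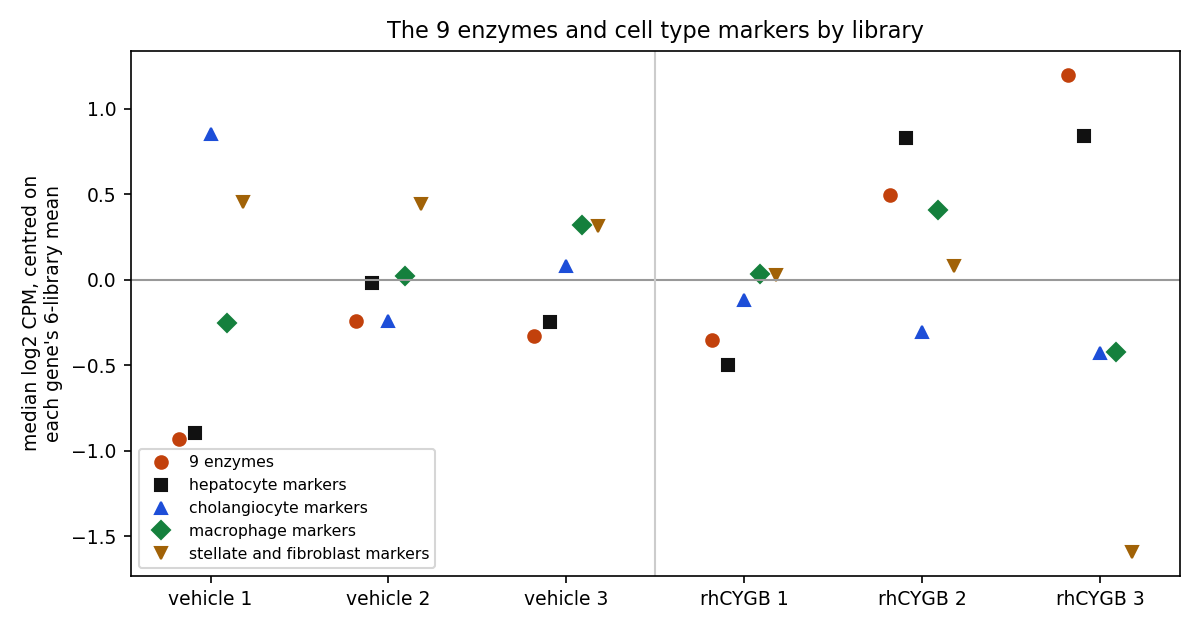
Points give, for each library, the median over a gene list of log2 CPM centred on each gene's mean over the 6 libraries, for the 9 enzymes and 4 marker lists, set side by side within a library. The enzymes and the hepatocyte markers are both lowest in vehicle replicate 1 (-0.93 and -0.90) and both highest in rhCYGB replicate 3 (1.20 and 0.84), where stellate markers are at -1.59. In rhCYGB replicate 2 the enzymes are at 0.49 and the hepatocyte markers at 0.83, nearly as high as in rhCYGB replicate 3.

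Among themselves the 9 profiles were not alike. The root mean square difference of log2 CPM, centred on each gene's mean over the 6 libraries, was smallest for Hgd and Haao (0.14) and largest for Hpd and Kmo (1.60). Of 7553 other genes with a mean CPM of at least 10, the nearest to Hpd was Zfp771 (0.10) and the nearest to Fah was Bckdha (0.07). Nearest to Haao was Rnf167 (0.05), to Kynu Hspb8 (0.05), to Afmid Cyp3a13 (0.08) and to Tat Fastk (0.09). Kmo and Tdo2 had no neighbour as close, with Ugt2b1 at 0.15 and B3galt1 at 0.23. These are descriptions over 6 libraries that share the differences given above.

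Other genes of aromatic amino acid metabolism, taken from a list of 38, mostly had higher values as well on the TMM scale. Of the 34 kept by the filter on low counts, 30 had a log2 fold change above 0. The median of the 34 was 0.56, against -0.06 for all genes and 0.71 for the 10 hepatocyte markers. Summed TPM of the 38 overlapped, at 5420, 4929 and 5130 in the vehicle mice against 5907, 4729 and 5877 in the rhCYGB mice. By edgeR 0 of the 34 passed an adjusted p of 0.05. At an unadjusted p under 0.05 there were 8 higher and 1 lower, where 6.06% of all genes met that p with higher values and 8.12% in either direction. The lower one was the transporter Slc7a8 at 16.6 ± 2.57 CPM with vehicle and 7.07 ± 4.06 CPM with rhCYGB. The groups did not overlap for 12 higher and 1 lower of the 34, where 6.02% of all genes were higher and 7.38% lower without overlap. The 9 genes of the NAD and glutaryl branch were all above 0, with a median of 0.68. Transporters were split, with 3 of 6 above 0.

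Got1, the cytosolic aspartate aminotransferase, was at 146 ± 47.3 CPM with vehicle and 856 ± 901 CPM with rhCYGB (SD, n = 3), with 1887 CPM in rhCYGB replicate 3 alone. Its log2 fold change was 2.55 (SE 0.80, edgeR unadjusted p = 0.0147, edgeR adjusted p = 0.523). Gchfr, which mediates feedback on tetrahydrobiopterin synthesis, was at 79.1 ± 27.0 and 340 ± 259 CPM (log2 fold change 2.11, SE 0.73). Kyat3, a kynurenine aminotransferase that draws kynurenine away from Kmo, had a CPM of 164, 210 and 180 in the vehicle mice, against 251, 485 and 590 in the rhCYGB mice, without overlap (log2 fold change 1.26, SE 0.38). The amino acid transporter gene Slc43a1 was at 5.56 ± 2.31 and 13.9 ± 6.63 CPM. Aldh2, a mitochondrial aldehyde dehydrogenase, was at 1177 ± 205 and 1888 ± 667 CPM. Ido1, which can replace Tdo2 in immune cells, had 0 counts in all 6 libraries.

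**Figure D5:**
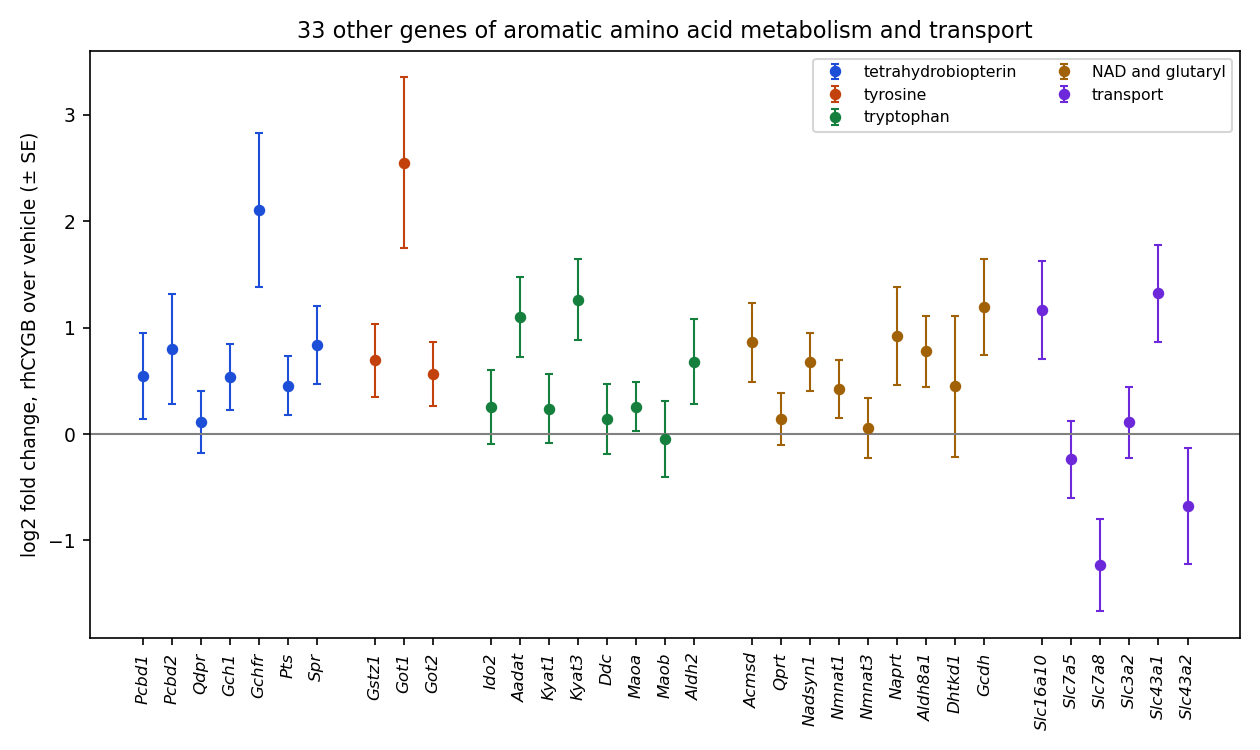
Points give the log2 fold change of rhCYGB over vehicle and bars its SE (edgeR, TMM) for 33 of the other genes, coloured by their role. Of these 29 lie above 0, Got1 is the highest at 2.55 and Slc7a8 the lowest at -1.23, and 0 of them passed the test over all genes.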

How the data were processed

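The authors deposited a count, treated here as an estimated count, and an FPKM per gene and per transcript for each library. How the deposited counts were made is not stated. Per the submitters' processing notes, FastQC 0.11.7, HISAT2 2.1.0, StringTie 1.3.4d and the build mm10 were used. The annotation release was not given in these sources, nor was the strand setting. FPKM was rescaled here to TPM.

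Genes were tested in R 4.3.3 with edgeR 4.0.16 (counts already whole, filterByExpr, TMM, robust quasi-likelihood F test, Benjamini-Hochberg over 14415 genes, threshold 0.05), and transcripts likewise (19664). Standard errors were derived by dividing the absolute log2 fold change by the root of its F value. limma 3.58.1 and DESeq2 1.42.0 served as alternatives. The labels name each mouse by its own number, so replicates are different mice. Replicate numbers 1 to 3 follow deposition order. The members, lists and tests were chosen with earlier results of these data known. All 9 members passed the filter and are named. Of the pathway list, the 4 of smallest p and the 2 most abundant are named, and of the regulators the 2 most abundant. A pair of genes that these rules pick is not reported here. Genes outside this rule (Slc7a8, Ido1, Nr3c1, Nr1i3, and the kidney markers Umod, Slc12a1 and Kap) were chosen after their values were seen. Rn45s, a ribosomal RNA gene, is also named outside the rule.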

Additional observations from a re-analysis of the deposited data

How the results depend on the processing

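The limits are 3 mice a group and a library (rhCYGB replicate 1) that resembled the vehicle libraries. Another is rhCYGB replicate 3, which stood apart with 1.74% of its counts on Rn45s. It also had the fewest genes with a count, 14933 against 15542 to 16290 in the other libraries. Over all genes edgeR called 0, and 1170 had an unadjusted p under 0.05. DESeq2 called 56 of the 1836 genes to which it gave an adjusted p, with 1 member among them. Limma-voom with sample quality weights called 4323 genes with 5 members, and limma on log2(TPM + 1) called 0. Leaving out each library gave 0 to 3391 genes and 0 to 5 members, the upper value in each case without rhCYGB replicate 1. DESeq2 size factors, upper-quartile factors, hepatocyte marker factors, both other filters, removal of the length trend and an adjusted p of 0.1 gave 0 genes. For transcripts edgeR called 0 of 19664 (795, or 4.04%, at an unadjusted p under 0.05), DESeq2 318, and leaving out each library 0 to 958. The median log2 fold change of the 9 enzymes was 1.00, and it was 0.15 with hepatocyte marker factors, 0.18 on log2(TPM + 1) and 0.18 on log2(TPM + 0.1). Leaving out each library gave 0.68 to 1.28. The medians of all genes were -0.18 with upper-quartile factors, -0.69 with hepatocyte marker factors, -0.51 on log2(TPM + 1) and -0.75 on log2(TPM + 0.1). Kmo changed sign with hepatocyte marker factors (-0.12), by limma-voom with quality weights (-0.075), on log2(TPM + 1) (-0.46), on log2(TPM + 0.1) (-0.47) and without rhCYGB replicate 1 (-0.047), with -0.047 to 0.53 over the libraries left out. Kynu changed sign on log2(TPM + 1) (-0.013) and log2(TPM + 0.1) (-0.014). The other 7 kept a log2 fold change above 0 under all 16 alternatives run on them. The share of Kynu TPM on its main transcript differed by -0.02 percentage points, by 0.12 as a share of counts, and by -0.79 to 0.85 when each library was left out. That of Hgd differed by 0.34 points, or 0.19 to 0.60 when each library was left out. The cause of these changes was not tested. No paired analysis was possible because the labels give the mice of the 2 groups no shared replicate numbers.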

Other observations

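Of 12 genes for liver transcription factors and nuclear receptors, 6 had a log2 fold change above 0 with rhCYGB and 6 below it, with a median of 0.10, and 0 passed by edgeR (1 had an unadjusted p under 0.05). Hnf4a, a central hepatocyte factor, had a CPM of 334, 393 and 409 in the vehicle mice, against 472, 520 and 996 in the rhCYGB mice, without overlap. In TPM its groups overlapped, with 214, 159 and 187 in the vehicle mice against 232, 127 and 208 in the rhCYGB mice. Cebpa had a CPM of 141, 220 and 172 in the vehicle mice, against 222, 88.5 and 89.8 in the rhCYGB mice, so that rhCYGB replicates 2 and 3 were below all vehicle mice and rhCYGB replicate 1 above them. Nr3c1, the glucocorticoid receptor, was chosen after its values were seen and had a CPM of 51.3, 29.6 and 31.2 in the vehicle mice, against 51.2, 12.7 and 14.7 in the rhCYGB mice. Nr1i3, the xenobiotic receptor CAR, had the smallest p of the 12, with a CPM of 44.1, 37.9 and 45.7 in the vehicle mice, against 50.7, 207 and 279 in the rhCYGB mice (log2 fold change 2.07, SE 0.58, edgeR adjusted p = 0.523).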
